A study of Arabidopsis thaliana with 8 samples.

Results

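The genes described are 9 small heat shock protein (HSP) genes of Arabidopsis thaliana whose products serve compartments other than the class I cytosolic pool. They were chosen by identifier and grouped by compartment, and are 9 of the 32833 genes in the table of FPKM (fragments scaled by transcript length and by a size factor of the library). HSP23.5 (AT5G51440), HSP23.6 (AT4G25200) and HSP26.5 (AT1G52560) are mitochondrial, HSP21 (AT4G27670) is plastidial, HSP22 (AT4G10250) belongs to the endoplasmic reticulum (ER) and HSP15.7 (AT5G37670) to the peroxisome. HSP17.6II (AT5G12020) and HSP17.7II (AT5G12030) form cytosolic class II, and HSP17.4III (AT1G54050) is the class III protein of nucleus and cytosol. AT5G12030 carries the symbol HSP17.6A in RefSeq.

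The material was the terminal 1 mm of primary roots of the accession Col-0, labelled with no transgene or mutation in either group. The high temperature group (HT) was moved to 30 °C for 48 h from an age of 5 days, and the control group (CT) was kept at 22 °C for the same time. Both groups grew on the same agar medium in long days. Each of the 4 HT and 4 CT libraries came from 50 pooled seedlings, 10 from each of 5 plates, so that a value is an average over all cell types of the tip and over individuals. The labels count 4 replicates at each temperature, the methods 3, and all 8 libraries were used.

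Small HSPs are chaperones with a conserved alpha-crystallin domain. They bind unfolding proteins without using ATP and hold them until ATP-driven chaperones such as HSP70 and the HSP101/ClpB disaggregases refold them. Plants carry nuclear-encoded small HSPs for nearly every compartment, most of them silent in unstressed vegetative tissue and switched on by heat stress transcription factors (HSFs) that bind heat shock elements, inverted repeats of the unit GAA, in the promoters.

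At 30 °C, 7 of the 9 genes were higher than at 22 °C, the other 2 were not tested, and the size of the response differed widely between compartments. The mitochondrial HSP23.5 held most of the transcript signal at both temperatures, and HSP23.6 came next at HT but was near absence at CT. The class II genes were near absence at CT and at moderate levels at HT, and HSP22 appeared at a low level in HT libraries only. HSP15.7 and HSP17.4III rose by smaller factors, and the plastid HSP21 and the third mitochondrial gene HSP26.5 gave next to no reads at either temperature. A gene was called higher at a Benjamini-Hochberg adjusted p under 0.05, from limma over the 21739 genes whose normalized values (reads divided by a size factor of the library) averaged 1 or more, and a log2 fold change of at least 0.58. By this rule 20.0% of all tested genes were higher and 17.5% were lower. In each of the 7 genes every HT library was above every CT library, which held for 32.8% of all tested genes. HSP22 reached this minimum only through its HT libraries, so that it had to differ to be tested and its call is a description. The log2 fold changes of the tested members ran from 1.76 to 11.95, and the median over all tested genes was 0.01. An exact two-sided permutation test on each of the other 6 called genes gave p = 0.0286. That is the smallest that the 70 arrangements of 4 and 4 libraries allow. It is fixed once the groups do not overlap, and so adds nothing to the lack of overlap.

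**Figure D1:**
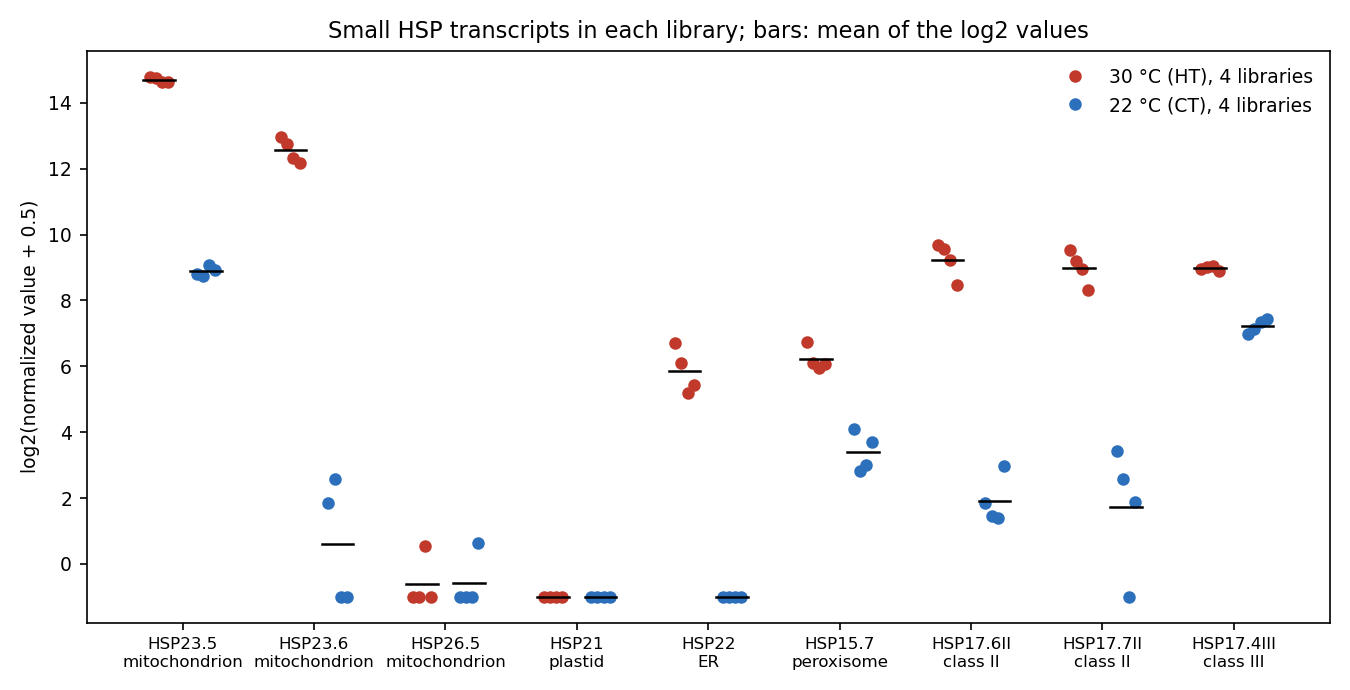
Each point is a library, with log2(normalized value + 0.5) on the vertical axis and the 9 genes by compartment on the horizontal axis, HT (red) left of CT (blue); bars are means of the log2 values. Points at the floor of the axis are libraries with no read. The groups do not overlap in 7 genes, HSP21 has no read in 8 libraries and HSP26.5 has 1 read per group.

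The libraries held 38216649 to 41833843 reads in genes at HT and 38396646 to 40750937 at CT. Transcripts of the 9 genes took 0.0950 ± 0.0104% of these reads at HT and 0.00153 ± 0.000141% at CT (SD, n = 4 each). In a bulk tip, more cells that express a gene and more RNA per cell cannot be told apart. All 6 root tip identity markers were present, and their summed normalized value was 9523 to 10124 at HT and 8714 to 9223 at CT. Of these, 2 were higher at HT, PLT1 with 2307 ± 102 at HT and 1234 ± 118 at CT, and WOX5 with 18.4 to 41.3 at HT and 3.14 to 10.3 at CT, and the other 4 passed in neither direction. Of 4 markers of the differentiating, hair-bearing zone, 3 were lower at HT, namely COBL9, EXPA7 and PRP3. The 4 markers summed to 0.877 to 123 at HT and 474 to 1112 at CT. COBL9, with 674 ± 224 at CT, made up most of the CT sums. The authors also reported COBL9 and EXPA7, which act in root hair tip growth, as lowered by heat in qRT-PCR. These genes thus do not mark the zone independently of the root hair response. The sum of 123 was that of HT replicate 3, where CASP1, the marker that was not lower, had 94.3, and the other 3 HT libraries summed to at most 12.2. Green tissue markers summed to 268 to 391 at HT and 329 to 354 at CT, with 3 of 4 lower. Among these 3, RBCS1A was at 0 in the HT libraries and had 5.17, 5.53, 3.20 and 0 in CT replicates 1 to 4. RBCS1A reached the minimum mean for a test only through its CT libraries, so its call is a description. RCA was higher, with 304 ± 55.9 at HT and 170 ± 11.6 at CT, and made up most of the HT sums. Of 3 seed storage protein genes, which mark tissue where small HSPs are also made in development, 2 had no read in any library and the third reached at most 4.39 at HT and 0 at CT. Of the flower markers AP1 and AG, AG had no read and AP1 reached at most 5.26 at HT and 3.14 at CT. The part of these marker differences in the small HSP values was not tested.

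HSP23.5 (chr5:20891163-20892416, TAIR10.1, plus strand, 2 exons) was the most abundant of the genes at both temperatures. Its normalized values were 28461, 27964, 25361 and 25462 in HT replicates 1 to 4, against 443, 431, 537 and 483 in CT replicates 1 to 4. The HT libraries lay within 1.12-fold of each other and far above all CT libraries. The means were 26812 ± 1631 at HT and 474 ± 47.6 at CT (SD, n = 4 each), a ratio of 56.6 and a log2 fold change of 5.83 (SE 0.0609, 95% interval 5.70 to 5.95, limma adjusted p = 2.6e-18). Per transcript length, it reached 609 ± 37.0 FPKM at HT and 10.8 ± 1.08 FPKM at CT. By its mean FPKM at HT it ranked 87 of 21739 tested genes.

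HSP23.6 (chr4:12916926-12918110, plus strand, 2 exons) encodes a matrix protein of the same family and had the largest fitted log2 fold change of the 21739 tested genes. Its normalized values were 8027, 6932, 5094 and 4651 in HT replicates 1 to 4, against 3.10, 5.53, 0 and 0 in CT replicates 1 to 4. The HT libraries together held 26608 reads and the CT libraries 8, none of them in CT replicates 3 and 4. The means were 6176 ± 1580 at HT and 2.16 ± 2.68 at CT, and the log2 fold change was 11.95 (SE 0.626, 95% interval 10.61 to 13.28, limma adjusted p = 1.3e-10). With so few CT reads this value moved with the pseudocount, to 13.17 at 0.1 and 9.79 at 5, and with the CT libraries, to 12.61 without CT replicate 2 and 11.41 without CT replicate 3. The level at HT was 149 ± 38.2 FPKM and spread 1.73-fold between libraries.

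The 200 bases before the annotated transcript starts of this pair are shown because both genes carried a mitochondrial dysfunction motif upstream of a heat shock element. Capitals mark the mitochondrial dysfunction motif in both lines and, in HSP23.5, also the heat shock element that follows it. The mitochondrial dysfunction motif is known as a target of the membrane-bound NAC factors that carry signals from mitochondria to the nucleus. It was searched for after the sequences had been seen.
HSP23.5 (chr5:20890963-20891162, plus strand): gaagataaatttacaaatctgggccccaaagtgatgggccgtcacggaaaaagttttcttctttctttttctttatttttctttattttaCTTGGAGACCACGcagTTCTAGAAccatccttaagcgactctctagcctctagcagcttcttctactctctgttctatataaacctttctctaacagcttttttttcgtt
HSP23.6 (chr4:12916726-12916925, plus strand): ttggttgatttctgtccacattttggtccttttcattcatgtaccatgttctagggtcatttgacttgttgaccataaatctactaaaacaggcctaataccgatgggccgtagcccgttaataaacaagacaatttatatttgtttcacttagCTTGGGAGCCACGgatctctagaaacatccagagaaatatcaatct

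Both motif copies lay upstream of the transcript, at bases -110 to -98 from the start in HSP23.5 and -46 to -34 in HSP23.6. The motif was found in 1.37% of 27443 promoters of 300 bases, and among the 9 genes also in HSP17.6II, at -220 to -208. In that cytosolic gene, too, a heat shock element lay further on, within the annotated transcript. The motif was also found in 1 of 6 class I cytosolic genes, HSP17.4, which held heat shock elements as well. The motif and this arrangement are thus not particular to the mitochondrial pair. In HSP23.6 the heat shock element lay further on, within the annotated transcript and 150 bases before the coding start. It is shown with the nearer element of HSP26.5, in 30 bases each and with the element in capitals. HSP26.5 carried 2 before its annotated start, at -264 to -257 and at -48 to -41, without giving more than 1 read per group.
HSP23.6 (chr4:12916928-12916957, plus strand): ccacttctccaGAACATTCactcactgaca
HSP26.5 (chr1:19575896-19575925, minus strand): agaaactcttaGAAACTTCtaacacctctt

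HSP26.5 (chr1:19574538-19575866, minus strand, 2 exons), the most distant of the mitochondrial genes, gave 1 read in HT replicate 3 (0.953) and 1 read in CT replicate 4 (1.05), and none in the other 6 libraries. At this depth no difference was detectable, and the gene was below the minimum mean for a test. Its coding sequence was 59.7% identical to that of HSP23.5, against 74.9% over 618 aligned bases between HSP23.6 and HSP23.5. None of the 50-base words of the 9 transcripts occurred elsewhere in the genome, and none of the genes overlapped another.

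The responses of HSP23.6 and HSP23.5 were compared through their ratio within each library. The log2 ratio of HSP23.6 over HSP23.5 was -1.83, -2.01, -2.32 and -2.45 in HT replicates 1 to 4, against -6.95, -6.16, -10.07 and -9.92 in CT replicates 1 to 4. HSP23.6 was below HSP23.5 in all 8 libraries, but by much less at HT. The mean was -2.15 ± 0.285 at HT and -8.27 ± 2.01 at CT (SD, n = 4 each), a difference of 6.12. CT replicates 3 and 4 had no HSP23.6 read, so their ratios were set by the pseudocount, and the difference was 7.35 with a pseudocount of 0.1 and 3.98 with 5. The exact two-sided permutation test gave p = 0.0286 and, adjusted over the 4 pairs within compartments, 0.0381. The pairs with HSP26.5 rest on 1 read per group and were not read as comparisons. They had the same unadjusted p and lowered the adjusted value, which is therefore not read as a pass.

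The ATP-driven chaperones of the mitochondrion changed by smaller factors. Of 7 listed genes, 4 were higher, with a median log2 fold change of 0.74. CLPB4, the mitochondrial disaggregase, averaged 7428 ± 326 at HT and 1559 ± 94.3 at CT, a log2 fold change of 2.25. The HSP70 gene mtHSC70-2 followed at 1.03, the HSP90 gene HSP90-6 at 0.91 and the chaperonin HSP60 at 0.74. HSP60 was already abundant at 22 °C, with a normalized value of 60681 ± 2248 at HT and 36247 ± 699 at CT. With total-sum rescaling or quantile normalization 6 of the 7 were higher.

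HSP21 (chr4:13818825-13819971, minus strand, 2 exons), which protects thylakoids and the plastid-encoded polymerase in green tissue, was listed at 0 FPKM in all 4 HT and all 4 CT libraries. It was not among the 23632 genes of the normalized table and was not tested. A count of 0 over 4 libraries allows up to 3 reads, or a mean normalized value of 0.701 at HT and 0.797 at CT. The sequences are shown because the gene carried heat shock elements while it gave no read; each line has 30 bases, with the element in capitals.
HSP21, element 1 (chr4:13820053-13820082, minus strand): aaacgagtcgaGAAACTTCgtatcaaatct
HSP21, element 2 (chr4:13819927-13819956, minus strand): actcagaactaGAATTTTCtaatcttcact

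The first element lay upstream of the transcript and the second within it, 50 bases before the coding start. FTSH6, a plastid protease known to degrade HSP21, averaged 23.7 ± 2.49 at HT and 2.91 ± 1.81 at CT, a log2 fold change of 2.98 (SE 0.443, limma adjusted p = 2.0e-05). PTAC5, a partner of HSP21 in plastid transcription, averaged 174 at HT and 171 at CT (log2 fold change 0.01, SE 0.134, limma adjusted p = 0.927). Of 7 other plastid chaperone genes, 1 was higher, HSP90-5 with 0.67, and the median was 0.20.

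HSP22 (chr4:6370338-6371372, plus strand, 1 exon) encodes the small HSP of the ER lumen. Its normalized values were 105, 68.4, 36.2 and 42.6 in HT replicates 1 to 4, and no read was found in any of the 4 CT libraries. The gene was present in every HT library, over a 2.90-fold range. The HT libraries held 272 reads and averaged 63.1 ± 31.3, or 1.54 ± 0.765 FPKM. Against 3 reads over the CT group, this was at least 79.1-fold higher. The fitted log2 fold change of 6.86 depended on the pseudocount. HSP22 had the one heat shock element of 3 units among the 9 genes, for which it is shown with the element in capitals. It lay within the annotated transcript, 150 bases before the coding start.
HSP22 (chr4:6370379-6370408, plus strand): aaagatatTTCAAGAAACTTCttcattctt

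The folding chaperones of the ER moved the other way. Of 7 listed genes, 6 were lower at HT and the median log2 fold change was -0.93. BIP3, a stress-induced HSP70 of the ER, had 0, 0, 0 and 5.81 in HT replicates 1 to 4 and 9.95 to 25.1 at CT. Its log2 fold change of -4.26 (SE 0.771) depended on the pseudocount. The disulfide isomerase gene PDIL1-1 averaged 13360 ± 957 at HT and 40884 ± 62.3 at CT, a log2 fold change of -1.62. The log2 fold change was -1.19 for the HSP70 gene BIP2 and -0.93 for the lectin chaperone gene CNX1. With total-sum rescaling 4 of the 7 were lower, and with quantile normalization 3.

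HSP15.7 (chr5:14968758-14969591, plus strand, 1 exon) is the peroxisomal member. Its normalized values were 106, 67.5, 61.0 and 66.8 in HT replicates 1 to 4, against 16.5, 6.63, 7.46 and 12.6 in CT replicates 1 to 4. HT replicate 1 stood above the other 3 HT libraries, and the lowest HT library was still above the highest CT library. The means were 75.3 ± 20.7 at HT and 10.8 ± 4.64 at CT, a ratio of 6.98 and a log2 fold change of 2.80 (SE 0.318, 95% interval 2.13 to 3.48, limma adjusted p = 1.0e-06). Its level remained low, at 2.29 ± 0.627 FPKM at HT and 0.328 ± 0.141 FPKM at CT.

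The class II genes HSP17.6II (chr5:3882231-3883111) and HSP17.7II (chr5:3883957-3884838) lie on the minus strand, 845 bases apart, each with 1 exon. Their coding sequences were 87.7% identical over 465 aligned bases, the closest pair of the 9 genes. The longest run their transcripts shared was 33 bases. HSP17.6II had 822, 752, 599 and 352 in HT replicates 1 to 4, against 3.10, 2.21, 2.13 and 7.33 in CT replicates 1 to 4. HSP17.7II had 747, 584, 494 and 316 in HT replicates 1 to 4, against 10.3, 5.53, 0 and 3.14 in CT replicates 1 to 4. The HT libraries took the same order in both genes, with replicate 1 at the top and replicate 4 at the bottom.

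HSP17.6II averaged 631 ± 208 at HT and 3.69 ± 2.46 at CT, a log2 fold change of 7.32 (SE 0.344, 95% interval 6.59 to 8.05, limma adjusted p = 3.9e-11). HSP17.7II averaged 535 ± 180 at HT and 4.75 ± 4.36 at CT, a log2 fold change of 7.27 (SE 0.665, 95% interval 5.85 to 8.69, limma adjusted p = 8.6e-08). The value of HSP17.7II was 6.37 without CT replicate 3 and 7.85 without CT replicate 1. With a pseudocount of 5 the log2 fold changes were 6.16 for HSP17.6II and 5.84 for HSP17.7II, as both rest on few CT reads. The genes ranked 25 and 26 among all tested genes by log2 fold change, with 2726 and 2306 reads at HT and 14 and 18 reads at CT. On the FPKM scale HSP17.6II reached 18.1 ± 5.98 at HT and 0.106 ± 0.0708 at CT, and HSP17.7II ranged from 9.06 to 21.4 at HT and reached at most 0.297 at CT.

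The log2 ratio of HSP17.7II over HSP17.6II was -0.24 ± 0.106 at HT and -0.19 ± 1.89 at CT (SD, n = 4 each). The ratio was tight at HT and wide at CT, where it rested on a handful of reads. The difference of -0.05 did not pass the exact two-sided permutation test (p = 1.0), and it ranged from -0.78 to 0.55 when single libraries were left out. With so few CT reads, a difference in response within this range was not detectable. Both genes carried a heat shock element with the same 8 bases at almost the same distance from the coding start, for which they are shown with the element in capitals.
HSP17.6II (chr5:3883035-3883064, minus strand): gaccaagacgtTTCTCGAAcaatacggaag
HSP17.7II (chr5:3884842-3884871, minus strand): gatcaagacgtTTCTCGAAcgttagagaag

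HSP17.4III (chr1:20179357-20180566, minus strand, 3 exons) encodes the class III small HSP and had the smallest change of the tested members. Its normalized values were 499, 521, 532 and 476 in HT replicates 1 to 4, against 126, 140, 162 and 174 in CT replicates 1 to 4. It was the only tested member besides HSP23.5 with over 100 in every CT library, and its HT values had the smallest relative spread of the 7 genes (coefficient of variation 4.85%). The means were 507 ± 24.6 at HT and 151 ± 21.4 at CT, a ratio of 3.37 and a log2 fold change of 1.76 (SE 0.104, 95% interval 1.54 to 1.98, limma adjusted p = 5.2e-10). Per length it had 11.5 ± 0.560 FPKM at HT and 3.43 ± 0.486 FPKM at CT. The gene had 2 heat shock elements close together, both inside its long annotated transcript leader, shown in 30 bases each with the elements in capitals.
HSP17.4III, element 1 (chr1:20180341-20180370, minus strand): tcactagttacTTCTAGAAattttctctgg
HSP17.4III, element 2 (chr1:20180323-20180352, minus strand): aattttctctgGAACTTTCtagctcactgg

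**Figure D2:**
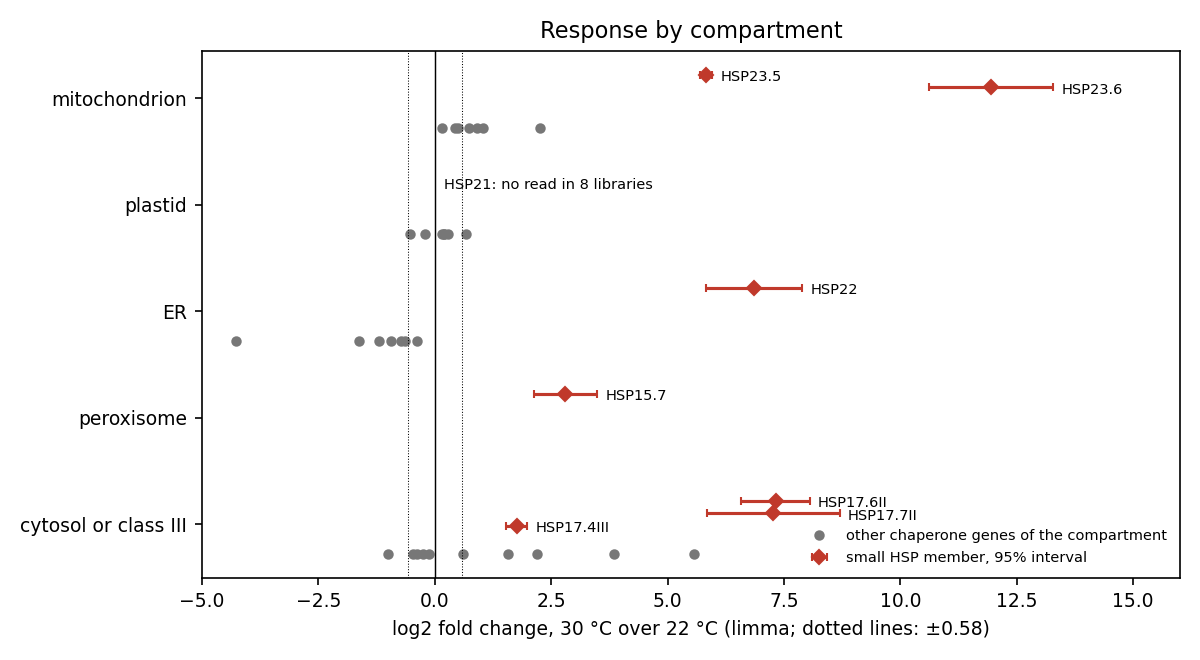
The horizontal axis is the log2 fold change at 30 °C over 22 °C from limma, for the tested small HSP genes (diamonds with 95% intervals) and for other chaperone genes of the same compartment (grey points); dotted lines mark ±0.58. The mitochondrial small HSPs lie at 5.83 and 11.95 with the other mitochondrial chaperones at a median of 0.74, and the ER chaperones lie at a median of -0.93 with HSP22 at 6.86, a value that depends on the pseudocount.

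Summed over the 9 genes, FPKM was 807 ± 86.3 at HT and 14.8 ± 1.28 at CT (SD, n = 4 each). The mitochondrial genes held 94.0 ± 0.994% of the sum at HT and 73.0 ± 2.09% at CT. Their share was 93.1, 93.7, 93.8 and 95.4% in HT replicates 1 to 4, against 73.0, 73.3, 75.4 and 70.3% in CT replicates 1 to 4. Most of it was HSP23.5, with 609 ± 37.0 FPKM at HT and 10.8 ± 1.08 FPKM at CT, while HSP23.6 had 149 ± 38.2 FPKM at HT and 0.0521 ± 0.0648 FPKM at CT. Class III held the next largest share at CT but not at HT, with 1.44 ± 0.156% at HT and 23.1 ± 1.94% at CT. Class II held 4.08 ± 1.01% at HT and 1.68 ± 0.993% at CT. The peroxisomal gene held 0.281 ± 0.0533% at HT and 2.24 ± 1.03% at CT, and the ER gene 0.186 ± 0.0733% at HT and 0 at CT. In absolute terms every compartment with reads was higher at HT, class III included. The mitochondrial sum of 758 ± 74.8 FPKM at HT, against 10.8 ± 1.03 FPKM at CT, can be set beside the 6 class I cytosolic genes, which summed to 321 ± 56.0 FPKM at HT and 17.1 ± 0.720 FPKM at CT.

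**Figure D3:**
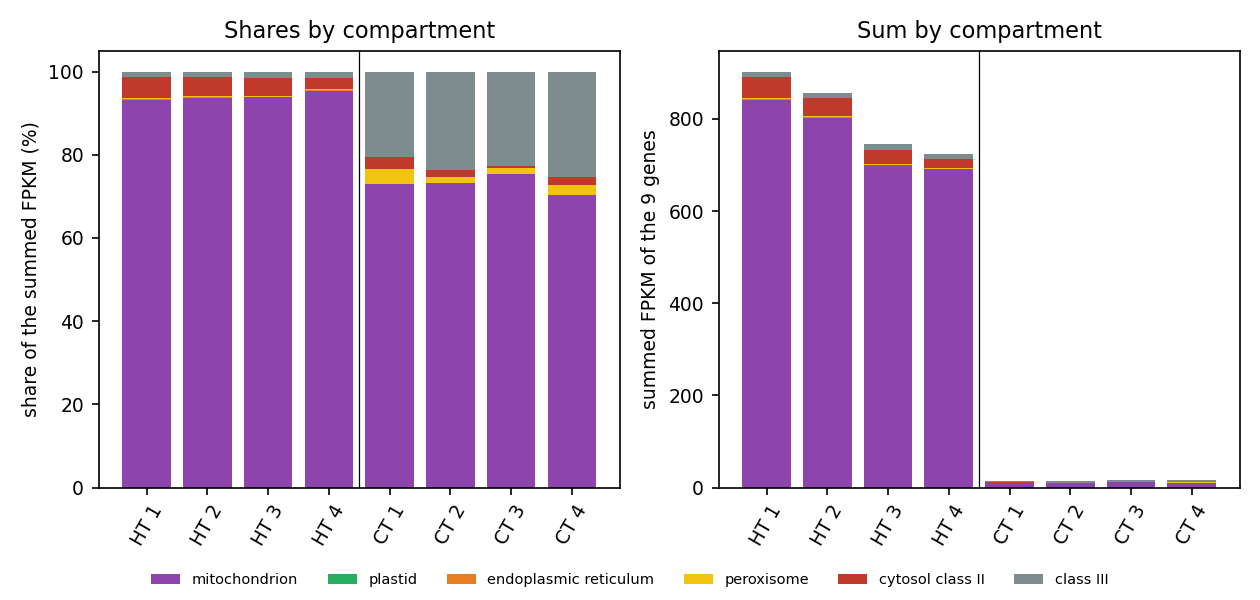
Left, the share of each compartment in the summed FPKM of the 9 genes (percent), and right, the sum itself (FPKM), for each HT library and then each CT library. The mitochondrial share is 93.1 to 95.4% in the HT libraries and 70.3 to 75.4% in the CT libraries, and the sums average 807 FPKM at HT and 14.8 FPKM at CT.

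Among the tested members, HT replicate 1 was the highest HT library in 6 of 7, the exception being HSP17.4III with HT replicate 3. HT replicate 4 was the lowest in 4 of 7 and HT replicate 3 in the other 3. Of all 4344 genes higher at HT, HT replicate 1 was the highest HT library in 56.1% and HT replicate 4 the lowest in 37.9%. Of the 6 class I genes, 5 also had their highest HT value in replicate 1. HSFA2 also had its highest HT value in replicate 1, with 933, 866, 787 and 645 in HT replicates 1 to 4 and 195, 159, 168 and 245 in CT replicates 1 to 4. The source of these differences between libraries was not tested.

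The class I cytosolic small HSPs are the small HSPs most often used as heat markers. Of 6 genes, 5 were higher, and the median log2 fold change was 3.65. HSP17.6B-CI (AT2G29500) averaged 9656 ± 1644 at HT and 410 ± 28.9 at CT, a log2 fold change of 4.54, HSP17.8 had one of 3.96, HSP17.4 had 3.86 and HSP17.6A-CI (AT1G59860) had 3.43. HSP18.2, named after its values were seen, had 10.5 to 25.3 at HT and 7.46 to 24.8 at CT (log2 fold change 0.33, limma adjusted p = 0.498). Of 5 further small HSP genes, 4 were higher with a median of 2.15, led by HSP14.7 with 4221 ± 403 at HT and 133 ± 5.10 at CT, a log2 fold change of 4.98. HSP18.5 had 2.96, the peroxisomal ACD31.2 had 2.15 and HSP21.7 had 1.07, while HSP15.4, also named after its values were seen, had -0.57 (limma adjusted p = 0.205).

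Of 13 listed heat stress regulators, 7 were higher and 1 was lower at HT. HSFA2, the factor that sustains small HSP transcription after the first hours of heat, averaged 808 ± 124 at HT and 192 ± 38.5 at CT, a log2 fold change of 2.08. On the log2 scale, the coactivator MBF1C rose by 4.05, HSFA3 by 2.32 and HSFB1 by 1.51, and HSFA1E, one of the constitutive master factors, was lower with -0.64, a call it lost with total-sum rescaling. Of 10 cytosolic HSP70, HSP90 and HSP101 genes, 5 were higher and 1 was lower. HSP70-4 had a log2 fold change of 5.56, HSP90-1 of 3.86 and HSC70-2 of 1.56. HSP101, the cytosolic disaggregase that works on small HSP-bound aggregates, averaged 2444 ± 258 at HT and 535 ± 29.5 at CT, a log2 fold change of 2.19.

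In the 300 bases before the annotated start, a heat shock element of 2 units (GAANNTTC or TTCNNGAA, each its own reverse complement) was found in 5 of the 9 genes and in 19.3% of 27443 promoters. The 5 were HSP23.5, HSP26.5, HSP21, HSP15.7 and HSP17.7II, of which 2 gave next to no reads. HSP26.5 alone held 2 elements there, and 2.46% of promoters held at least 2. In the 300 bases before the coding start, a window chosen after the data were seen, 8 of the 9 genes held one, all but HSP15.7, against 22.8% of genes. Of the 6 class I genes, 2 held one before the annotated start and all 6 before the coding start. Of the 5 further small HSP genes, 4 of them higher at HT, 0 held one before the annotated start and 1 before the coding start. An element of 3 alternating units was found before the coding start in HSP22 and in 0.747% of all genes. It was also found there in 3 of the 6 class I genes. These were HSP17.6C and HSP17.4, both called higher at HT, and HSP18.2, which was not. A match describes the letters only.

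**Figure D4:**
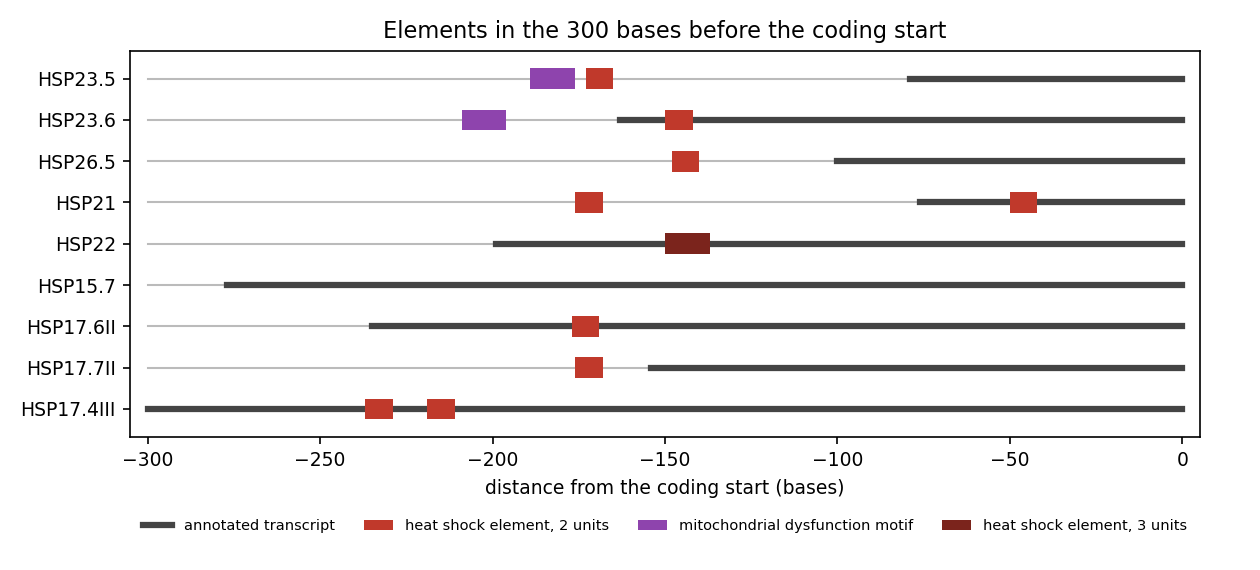
The horizontal axis is the distance from the coding start in bases, for 300 bases upstream in each of the 9 genes; dark lines are the annotated transcript and boxes are heat shock elements of 2 units (red) or 3 units (dark red) and the mitochondrial dysfunction motif (purple). In 8 of 9 genes a heat shock element lies in this window, and in HSP23.5 and HSP23.6 the mitochondrial dysfunction motif lies upstream of it.

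For each tested member the gene with the most similar profile was sought among 18851 other genes, by the root mean square difference of log2 values relative to the gene's own mean over the 8 libraries. HSP17.4III was nearest to RS31a (0.0764), a splicing factor gene, and HSP23.5 to AT2G38823 (0.101). HSP15.7 was nearest to KIN1 (0.229), HSP22 to AT5G25450 (0.346) and HSP17.6II to AT2G42065 (0.425). HSP17.7II was nearest to the transporter gene ABCG21 at 0.815 and HSP23.6 to AT5G54560 at 1.49, so the nearest profiles to these 2 genes were further off than for the other 5. These distances include the scatter of few CT reads, 18 for HSP17.7II and 8 for HSP23.6. HSP23.6 also had the largest fitted log2 fold change of all tested genes. The part of either in the distances was not tested. Beyond the rule of naming the nearest profile only, the second nearest gene to HSP23.5 was AT1G77830 (0.142) and the third was the cytosolic HSP70-4 (0.158).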

How the data were processed

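Poly(A) RNA of 8 root tip libraries was sequenced by the authors as directional libraries. HISAT2 alignment, DESeq2 and the TAIR10 build are named, without versions, in the submitters' processing notes. How reads were counted, and whether by strand, is not given in the sources used here. The deposited normalized signal values are read counts per gene divided by size factors, and 100% could be turned back into whole reads (tolerance 0.01). The deposited FPKM values carry the same scaling between libraries and also divide by length. The members, lists and tests were chosen with earlier results of these data known.

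For the 21739 genes averaging 1 or more, log2(normalized value + 0.5) was compared between HT and CT by limma 3.58.1 (R 4.3.3; trended variance, no covariates). Calls required a change of 0.58 or more on the log2 scale and a p under 0.05 after Benjamini-Hochberg adjustment. edgeR 4.0.16 and DESeq2 1.42.0 on the recovered reads, other scalings, pseudocounts and filters, and leaving out each library were alternatives. The fit and the permutation test were tested on simulated data. P-values measure the spread between seedling pools. Coordinates and sequences are from the RefSeq genome TAIR10.1, and 23479 identifiers matched its gene table. Named were all members, in each list up to 4 genes past both thresholds, HSFA2, HSP101 and the nearest profile of each tested member. The 95% intervals come from the same fit, and floors of 3 reads cover counting error only.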

Additional observations from a re-analysis of the deposited data

Results flagged for a closer look

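In 15 sets of 4 libraries examined for a library far from the other 3, chance flags about 1 in 20. HSP26.5 was set apart in HT replicate 3 (0.953) and in CT replicate 4 (1.05), each of which held the single read of its group. HSP15.7 was set apart in HT replicate 1, where its normalized value was 106 and the other HT libraries lay between 61.0 and 67.5. Without that library its log2 fold change was 2.63, past both thresholds.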

How the results depend on the processing

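All 7 calls of members kept their direction and their side of the threshold under 20 of 20 alternatives. The call of HSP22, counted among the 7 here and below, remains a description, since the gene had no CT read. The alternative with no fold threshold used the main fit and could not lose a call. Total-sum rescaling moved the median change over all genes from 0.01 to 0.21 (log2) and the calls to 5965 higher and 2599 lower, against 4344 and 3797. On the recovered reads edgeR called 4412 genes higher and 3636 lower, and DESeq2 4203 and 3706. With no fold threshold 7798 genes were higher and 7657 lower. With single libraries left out, 4073 to 4310 genes were higher, 3620 to 3841 lower and 7 members higher. The class II difference between HSP17.7II and HSP17.6II reversed to 0.44 with a pseudocount of 0.1, to 0.55 without CT replicate 1 and to 0.40 without CT replicate 2, and ranged from -0.78 to 0.55 over the single libraries left out. The mitochondrial difference between HSP23.6 and HSP23.5 ranged from 5.52 to 6.83 over the single libraries left out and from 3.98 to 7.35 over the pseudocounts. With single libraries left out, the mitochondrial share ranged from 93.5 to 94.3% at HT and from 72.2 to 73.9% at CT. The promoter count of 5 genes became 8 in the window before the coding start, chosen after seeing the data.

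The labels share replicate numbers, but deviations of same-numbered HT and CT libraries correlated by only -0.009 to 0.016, so the numbers were not taken as pairs. With a replicate block 4300 genes were higher and 3762 lower. A paired sign-flip test of HSP23.6 over HSP23.5 kept the difference of 6.12 with an exact p of 0.125, the smallest its 16 arrangements allow.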
